A study of Mus musculus with 12 samples.

Results

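The genes described here encode the inward rectifier potassium channels of the heart and the subunits of its ATP-sensitive channels. They are the rows of the count table named *Kcnj2*, *Kcnj12* and *Kcnj14*, which encode pore subunits of the Kir2 family behind the inward rectifier current IK1; *Kcnj3* and *Kcnj5*, the 2 subunits of the acetylcholine-activated channel behind IKACh; and *Kcnj8*, *Kcnj11*, *Abcc8* and *Abcc9*, the pore and sulfonylurea receptor subunits of the KATP channel. All 9 names were found among the 54658 gene names of the table. Of the 9, 8 passed the expression filter of more than 1 CPM (counts scaled to a common library total) in at least 6 libraries, which 13541 names passed in all, and *Kcnj14* did not.

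The libraries were made from the left atrium (LA) of 6 iNICD mice (*αMHC-rtTA*; *tetO_NICD*) and 6 littermate controls (*αMHC-rtTA* alone) on a mixed genetic background. Both groups carried the transactivator, both were fed doxycycline for 3 weeks without a washout, and the mice were 2 to 3 months old. In iNICD mice the chow switches on the intracellular domain of Notch1 where the *αMHC* promoter is active, that is in cardiomyocytes, whereas each library holds RNA of the whole atrium. Females numbered 4 among the controls and 3 among the iNICD mice, the rest being male. The 12 libraries held 21432632 to 27182038 counted reads. The comparison asks whether Notch activation in adult cardiomyocytes alters the transcripts of these channels in the LA.

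The library labels were checked first. *Notch1* lay between 108 and 131 normalized CPM in control and between 2975 and 4077 in iNICD libraries; transgene reads cannot be separated from endogenous ones. The atrial light chain gene *Myl7* was at 4597 ± 424 normalized CPM in controls and the ventricular light chain gene *Myl2* at 0.687 ± 0.310. One control, replicate 5, stood apart from the rest: 1793 genes lay at least 2-fold from the mean of its group, against 187 to 423 in the other 11 libraries. Where a call or a pattern of the members turned on that library, values without it are given too.

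Kir channels pass potassium more readily into the cell than out of it. Kir2 channels hold the resting membrane potential and shape the end of repolarization. The channel built from the *Kcnj3* and *Kcnj5* products opens when G protein βγ subunits are released by muscarinic or adenosine receptors, and through it the vagus shortens the atrial action potential. KATP channels join a Kir6 pore to a sulfonylurea receptor and open when cellular ATP falls. In mouse atrium the products of *Kcnj11* and *Abcc8* are known to form the KATP channel of the cardiomyocytes, while *Kcnj8* and *Abcc9* are known from vascular smooth muscle and pericytes.

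Of the 8 tested members, 0 were higher and 0 lower in the iNICD LA by the quasi-likelihood test of edgeR (p adjusted over every tested gene after Benjamini and Hochberg, threshold 0.05), which called 4.12% of the tested genes, 2.78% as higher and 1.34% as lower. At an unadjusted p under 0.05 there was 1 member, *Kcnj12*, against 17.4% of all tested genes. DESeq2, the exact test of edgeR and limma voom with sample weights also called 0 members, and 7.82%, 5.7% and 8.48% of all tested genes. The 8 log2 fold changes ran from -0.34 to 0.45 with a median of 0.07, and their median size was 0.15, against 0.13 for all tested genes. No member had control and iNICD libraries that did not overlap, an arrangement found for 3.83% of tested genes. The outcome for *Kcnj3* turned on control replicate 5.

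**Figure D1:**
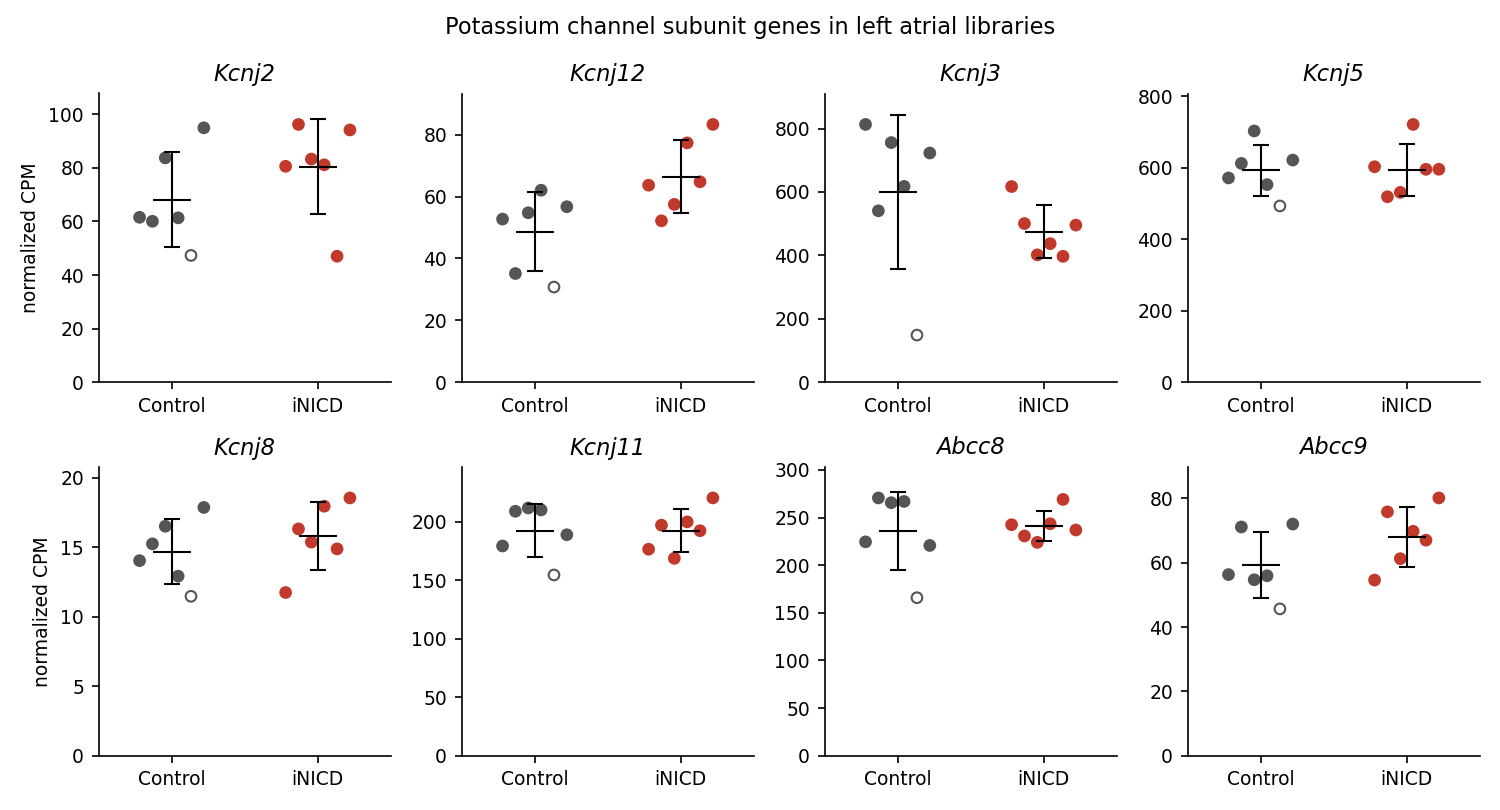
Normalized CPM of the 8 tested members, 1 point per library, with Control (grey) and iNICD (red) libraries side by side; the bar and whiskers are the mean and SD of 6 libraries, and the open circle is control replicate 5. The open circle is the lowest control in all 8 panels, and for *Kcnj3* it lies at 149 normalized CPM, below every iNICD library.

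The channel subunits differed widely in level. Per kilobase of transcript, *Kcnj5* had a control level of 127 ± 15.2 CPM per kb and *Kcnj3* one of 115 ± 46.4 (SD, n = 6). These 2 did not differ beyond their spread, *Kcnj5* being the higher in 3 of 6 control libraries. Without control replicate 5, where *Kcnj3* was at 28.5 and *Kcnj5* at 105 CPM per kb, the order of these 2 means turned. In the other controls *Kcnj3* ran from 104 to 156 and *Kcnj5* from 118 to 150 CPM per kb. *Kcnj11* followed at 52.3 ± 6.18 and *Abcc8* at 29.1 ± 5.04 CPM per kb, with ranges that did not touch. *Kcnj12* at 17.7 ± 4.61 lay above *Kcnj2* at 12.5 ± 3.23 CPM per kb in each of the 6 controls, although their ranges overlapped. *Abcc9* at 7.08 ± 1.23 and *Kcnj8* at 5.76 ± 0.923 CPM per kb were the lowest of the tested members. In the level per kb, *Kcnj5* and *Kcnj3* were at percentiles 98.2 and 98.1 of all tested genes in the control LA, and *Kcnj8* at percentile 54.5. The order of the means over all 6 controls also held among the group means of the iNICD libraries. There *Kcnj5* (127 ± 15.4 CPM per kb) lay above *Kcnj3* (91.0 ± 15.9) in 6 of 6 libraries.

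*Kcnj3* (ENSMUSG00000026824.11) is a plus-strand gene of chromosome 2, positions 55435970 to 55598145 in GRCm38 (mm10), with 4 merged exons. It encodes Kir3.1, which reaches the membrane in partnership with the *Kcnj5* product. *Kcnj5* (ENSMUSG00000032034.6) occupies 32314707 to 32344350 of chromosome 9 on the minus strand and encodes Kir3.4. Because these 2 subunits are compared as a pair, the 250 bases before the RefSeq start of each gene (GRCm38.p6) are shown 5′ to 3′, at chr2:55435720-55435969 on the plus strand for *Kcnj3* and chr9:32344345-32344594 on the minus strand for *Kcnj5*. Capitals mark matches, on either strand, to 5 strings of letters. They were TGGGAA for RBPJ, the DNA-binding partner of the Notch intracellular domain. For the Hes and Hey repressors they were CACGTG (the E-box), then CACGCG (the class C site), then CACNAG (the N-box). For T-box factors the string was AGGTGT.
Kcnj3: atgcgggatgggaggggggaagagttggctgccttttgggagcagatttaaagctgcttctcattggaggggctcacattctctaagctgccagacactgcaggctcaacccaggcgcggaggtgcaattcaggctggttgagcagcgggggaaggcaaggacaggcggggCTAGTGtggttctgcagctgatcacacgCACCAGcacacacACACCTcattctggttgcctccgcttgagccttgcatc
Kcnj5: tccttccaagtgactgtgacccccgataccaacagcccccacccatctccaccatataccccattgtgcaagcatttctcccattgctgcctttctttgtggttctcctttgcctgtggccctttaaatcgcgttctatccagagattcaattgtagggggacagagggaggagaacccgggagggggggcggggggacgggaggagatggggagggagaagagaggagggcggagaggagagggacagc
The *Kcnj3* window held 2 N-box matches, which begin 79 and 51 bases before the start, and 1 T-box match, which begins 38 bases before it, and none of these overlap. The *Kcnj5* window held none of the letter strings. Of the other members with a RefSeq promoter, *Kcnj12* and *Kcnj2* also held the N-box, and *Kcnj2* the E-box. The window of *Kcnj8* held the T-box string and that of *Abcc9* the RBPJ string. Over the same window of 32851 RefSeq promoters, 36.7% hold the N-box, 11.8% the T-box string, 21.6% the RBPJ string, 7.62% the class C site and 6.02% the E-box. A match of this kind is a description of the letters and shows no binding.

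*Kcnj3* had a lowest, median and highest level of 149, 670.2 and 813 normalized CPM in the control libraries and of 397, 466 and 617 in the iNICD libraries. The lowest control is replicate 5; the other 5 controls lay between 541 and 813 normalized CPM, and 5 of the 6 iNICD libraries were below all of those. With all 12 libraries the groups overlapped. Over all 12 libraries *Kcnj3* had an estimate of -0.34 on the log2 scale (standard error 0.30, 95% interval -0.99 to 0.31, edgeR adjusted p = 0.60).

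Without control replicate 5 the control level of *Kcnj3* was 690 ± 110 normalized CPM (SD, n = 5). Its estimate was then -0.54 on the log2 scale (standard error 0.13, 95% interval -0.83 to -0.25), and *Kcnj3* passed the threshold (edgeR adjusted p = 0.0316), the only member to do so. In that fit 2.3% of tested genes were called lower, and 4.11% in DESeq2 on the same 11 libraries. An exact permutation test on log2 CPM gave p = 0.0108 without the library and p = 0.745 with it (two-sided, n = 5 or 6 controls). DESeq2 without the library gave an adjusted p of 0.00183, and edgeR with sex as a covariate on the same 11 libraries 0.0545; limma voom, which kept the library at a weight of 0.148, gave 0.0546. A noncoding gene on the opposite strand, *Gm26794*, shares 1621 exonic bases with *Kcnj3*; it had at most 160 counts in a library, and how the counting treated strand is not given in the sources used here.

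**Figure D2:**
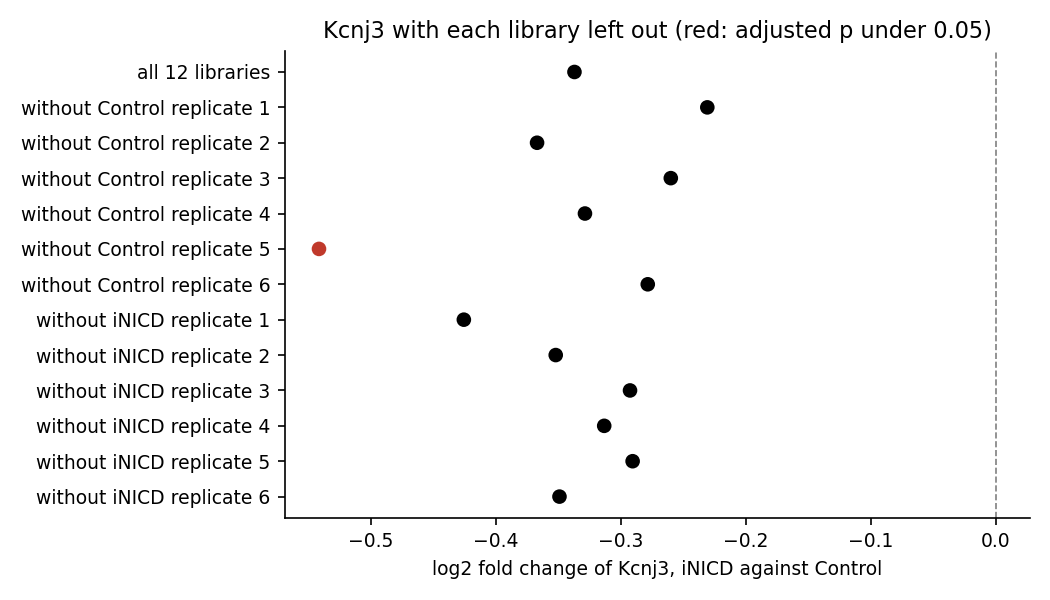
Log2 fold change of *Kcnj3* (x axis, iNICD against Control) over all 12 libraries and with each library left out in turn (rows). The estimate was negative in all 13 fits, from -0.54 to -0.23, and passed an adjusted p of 0.05 (red) only without control replicate 5.

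*Kcnj5*, the partner of *Kcnj3*, showed no such gap. Its lowest, median and highest levels were 493, 592 and 703 normalized CPM in controls and 519, 596 and 722 in iNICD libraries, which overlapped almost throughout. Its log2 fold change was 0.0046 (edgeR adjusted p = 0.987), and the 95% interval of the fold ran from 0.866 to 1.16. Without control replicate 5 it was -0.046 (adjusted p = 0.844).

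The ratio of *Kcnj3* to *Kcnj5*, taken per kb within each library and so independent of library scaling, had a lowest, median and highest value of 0.271, 0.984 and 1.28 in controls and of 0.544, 0.713 and 0.919 in iNICD libraries. The lowest control was again replicate 5, and the other 5 lay between 0.793 and 1.28. Over 12 libraries the mean log2 ratio differed by -0.18 (two-sided exact permutation test, p = 0.675, adjusted over 4 ratios 0.675). Without that library the difference was -0.49 (exact permutation p = 0.0195, adjusted over 4 ratios 0.0779), which does not pass after adjustment.

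Of the IK1 genes, the 2 tested had positive estimates and neither passed the test. *Kcnj12* (ENSMUSG00000042529.14; chromosome 11 from 61022564 to 61071131, plus strand) encodes Kir2.2. Its lowest, median and highest levels were 30.8, 53.8 and 62.1 normalized CPM in controls and 52.2, 64.2 and 83.3 in iNICD libraries. In 4 of 6 iNICD libraries it was above all controls. On the log2 scale the difference was 0.45 (standard error 0.18, 95% interval 0.068 to 0.83), with an unadjusted p of 0.0243 and an adjusted p of 0.201 in edgeR. An exact permutation test gave p = 0.0325 with all libraries and 0.0628 without control replicate 5. The edgeR estimate was 0.34 without that library (adjusted p = 0.227), 0.18 in females alone and 0.77 in males alone, and none of these passed.

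*Kcnj2* (ENSMUSG00000041695.2; chromosome 11 from 111066164 to 111076821, plus strand) encodes Kir2.1, the main Kir2 subunit of ventricular IK1. Its lowest, median and highest levels were 47.3, 61.4 and 94.95 normalized CPM in controls and 47.0, 82.2 and 96.2 in iNICD libraries. The iNICD group held 1 low library, replicate 5 at 47.0 normalized CPM, while its other 5 lay between 80.6 and 96.2. Its log2 fold change was 0.24 (standard error 0.19, edgeR adjusted p = 0.547), and it was 0.35 without iNICD replicate 5 (adjusted p = 0.278) and 0.15 without control replicate 5 (adjusted p = 0.724). The ratio of *Kcnj2* to *Kcnj12* per kb ranged from 0.499 to 0.864 in controls and from 0.367 to 0.932 in iNICD libraries (difference in mean log2 ratio -0.24, exact permutation p = 0.329, adjusted over 4 ratios 0.476).

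*Kcnj14* (ENSMUSG00000058743.6; chromosome 7 from 45816460 to 45824782, minus strand), which encodes Kir2.4, was near the limit of detection. Control libraries held 0 to 5 reads of it and iNICD libraries 0 to 11, 14 and 35 reads in all. Exact Poisson intervals of these sums, which cover counting error only, were 7.65 to 23.5 and 24.4 to 48.7 reads. Between libraries the groups did not differ beyond their spread (two-sided exact permutation test on log2 CPM, p = 0.357, n = 6 per group).

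**Figure D3:**
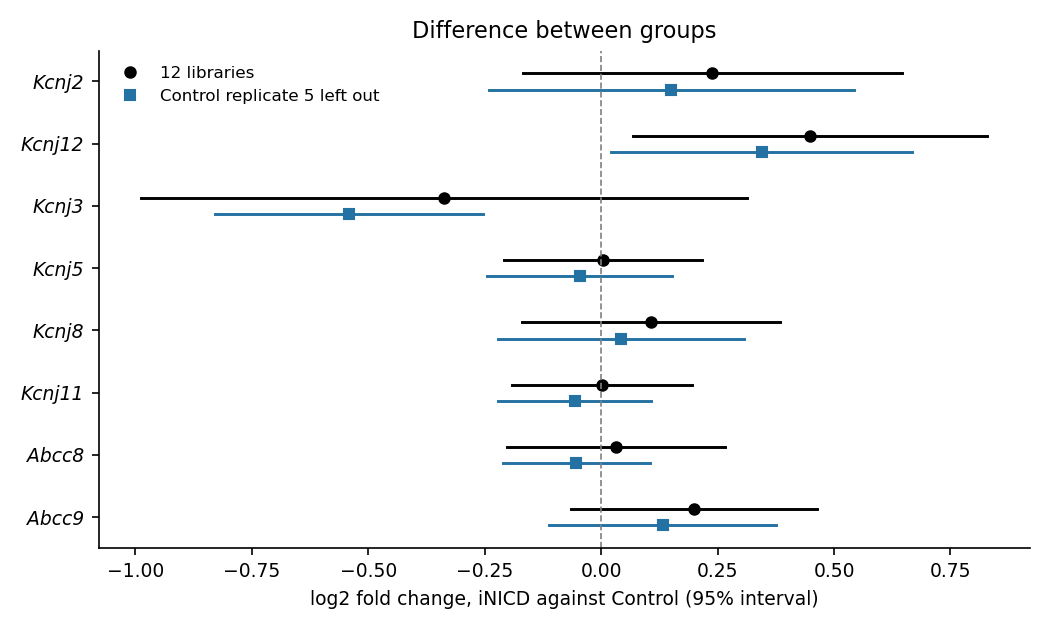
Log2 fold change, iNICD against Control, with its 95% interval for the 8 tested members over all 12 libraries (black circles) and without control replicate 5 (blue squares). The interval of *Kcnj3* narrows from -0.99 to 0.31 to between -0.83 and -0.25, and the intervals of *Kcnj5*, *Kcnj11* and *Abcc8* stay close to 0 in both fits.

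Neither gene of the cardiomyocyte KATP channel passed the test, and both had estimates near 0. *Kcnj11* (ENSMUSG00000096146.2; chromosome 7 from 46093953 to 46100764), which encodes the Kir6.2 pore, had a lowest, median and highest level of 154, 199 and 212 normalized CPM in controls and of 169, 195 and 220 in iNICD libraries. *Abcc8* (ENSMUSG00000040136.10; chromosome 7 from 46104523 to 46180033), which encodes the receptor SUR1, had 166, 245 and 271 normalized CPM in controls and 224, 240 and 269 in iNICD libraries. The groups overlapped for both genes. For *Kcnj11* the log2 fold change was 0.0016 (standard error 0.089, edgeR adjusted p = 0.995), with a 95% interval of the fold from 0.876 to 1.14, and that of *Abcc8* was 0.033 (standard error 0.11, adjusted p = 0.906), with an interval from 0.869 to 1.20.

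*Abcc9* (ENSMUSG00000030249.15; chromosome 6 from 142587862 to 142702315) encodes the receptor SUR2. Its lowest, median and highest levels were 45.6, 56.1 and 72.0 normalized CPM in controls and 54.6, 68.4 and 80.1 in iNICD libraries, with 2 iNICD libraries above all controls. Its log2 fold change was 0.20 (standard error 0.12, edgeR adjusted p = 0.427). *Kcnj8* (ENSMUSG00000030247.9; chromosome 6 from 142564837 to 142571614), the Kir6.1 pore gene, had 11.5, 14.6 and 17.9 normalized CPM in controls and 11.7, 15.8 and 18.5 in iNICD libraries, ranges that overlapped almost throughout (log2 fold change 0.11, standard error 0.13, adjusted p = 0.708).

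The relative amounts of the KATP subunits were also close between groups. *Kcnj11* exceeded *Kcnj8* per kb by 7.32 to 11.2 times in control and by 7.60 to 10.4 times in iNICD libraries (difference in mean log2 ratio -0.10, exact permutation p = 0.357, adjusted over 4 ratios 0.476). *Abcc8* exceeded *Abcc9* per kb by 3.17 to 5.02 times in control and by 3.06 to 4.60 times in iNICD libraries (difference -0.16, exact permutation p = 0.275, adjusted over 4 ratios 0.476). In every library of both groups *Kcnj11* and *Abcc8* were thus the more abundant genes of these ratios per kb. In whole-atrium RNA, fewer cells of a type and less RNA per cell cannot be told apart.

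**Figure D4:**
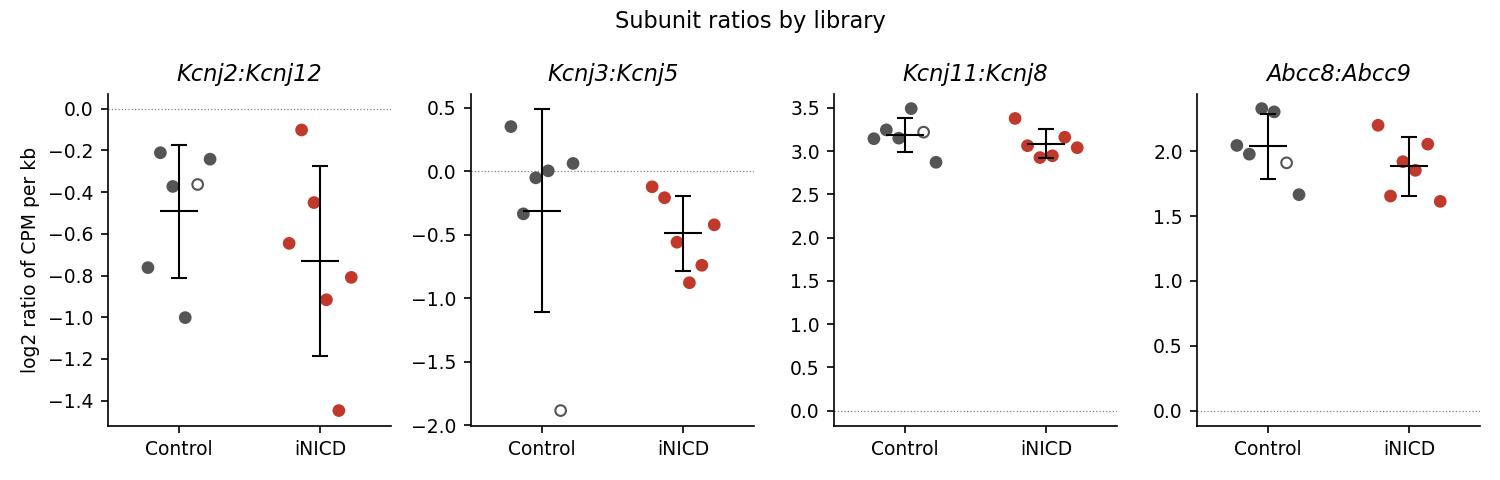
Log2 ratio of CPM per kb for 4 subunit pairs, 1 point per library, Control in grey and iNICD in red, with mean and SD of 6 libraries; the open circle is control replicate 5. The groups overlap in all 4 panels, and control replicate 5 falls away only in the ratio of *Kcnj3* to *Kcnj5*, at a linear value of 0.271 against 0.793 to 1.28 in the other controls.

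Some of these genes are neighbours on the genome. *Kcnj11* and *Abcc8* lie 3758 bases apart on chromosome 7, and *Kcnj8* and *Abcc9* 16247 bases apart on chromosome 6, each pair on the same strand. After the group means were taken off, log2 CPM of *Kcnj8* and *Abcc9* correlated with a Pearson r of 0.816 over the 12 libraries and of 0.749 without control replicate 5. For *Kcnj11* and *Abcc8* r was 0.779 and 0.544. *Kcnj3* and *Kcnj5*, on different chromosomes, had an r of 0.509 with and 0.0739 without that library. Over all pairs of tested members that are not neighbours, r ran from 0.0856 (*Kcnj2* with *Abcc8*) to 0.70 (*Kcnj3* with *Abcc8*) with that library and from -0.59 (*Kcnj2* with *Abcc8*) to 0.496 (*Kcnj11* with *Abcc9*) without it. These are descriptions over libraries that share 1 deviating member and carry no test.

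The genes with the most similar pattern were found by the same correlation over the 12 libraries. For *Kcnj12* they were *Kcnn2* (r = 0.982), the gene of a calcium-activated potassium channel, and *Pip4k2c* (r = 0.964); without control replicate 5 the same 2 genes led, at 0.971 and 0.960. For *Kcnj3*, *Mzb1* was one of them (r = 0.9748), with an r of 0.767 without that library, and *Fbxo11* and *Tigd2* then led. For *Abcc9* they were *Ip6k2* (r = 0.934) and *Ndufa4l2* (r = 0.918), the second of which is a pericyte marker, with 0.906 and 0.891 without control replicate 5. The leading genes were *4633401B06Rik* and *Rap1gap* for *Kcnj8*, *2410022M11Rik* and *Flrt1* for *Kcnj11*, *Clmn* and *Dact3* for *Abcc8*, *Rabl3* and *Gimap1* for *Kcnj5*, and *Zkscan8* and *Poli* for *Kcnj2*, with r from 0.894 to 0.957. Without control replicate 5 *Clmn* and *Dact3* had an r of 0.733 and 0.815 with *Abcc8*, for which *Spry1* and *Lmnb2* then led, and the other 8 genes had r from 0.861 to 0.963. The leading gene stayed in place for *Kcnj8* and *Kcnj11*, and other genes led for *Kcnj5*, *Kcnj2* and *Abcc9*. Over the 12 libraries 323 genes had an r above 0.9 with *Kcnj3* and 72 with *Kcnj12*. For each of the other tested members 1 to 7 genes did.

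Of the protein-coding genes next to the members, 10 that are not members were tested. None of these was higher and 2 were lower in the iNICD LA, beside 2.78% and 1.34% of all tested genes. They were *Nr4a2*, 1508684 bases from *Kcnj3* (log2 fold change -1.54 with an edgeR adjusted p = 0.00632), and *Nomo1*, 9740 bases from *Kcnj11* (-0.19 on the same scale, adjusted p = 0.0386).

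Control replicate 5 was low throughout the family. All 8 tested members were below the 5 other controls in it, as were 35.8% of all tested genes, and the median of the members was 0.51 lower on the log2 scale than in the other controls, against 0.02 lower for all tested genes. *Kcnj3* was the furthest, at 21.5% of the mean of the other controls; 141 of 13541 tested genes were as far or further below. The other 7 tested members stood between 58.8% (*Kcnj12*) and 80.5% (*Kcnj5*). In the same library the summed cardiomyocyte markers were at 76338 normalized CPM (other controls 62159 to 67849), the smooth muscle markers at 572 (396 to 486) the endothelial markers at 1031 (714 to 883) and the pericyte markers at 540 (382 to 517). Epicardial markers were at 194 (197 to 258), adipocyte markers at 1.45 (1.99 to 4.95) and neuron markers at 0.374 (0.828 to 1.34), and the other 4 lists, of ventricular, fibroblast, macrophage and nodal markers, were no higher or lower than in the other controls. Single markers can carry such sums. Among all controls *Actc1* ran from 7484 to 21932 normalized CPM (median 8550), and *Cnn1* from 4.14 to 236 (median 17.8). The part of these marker levels in the levels of the channel genes was not tested.

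Cell type markers were also compared between groups beside the channel genes. Of 7 pericyte markers 1 was higher, *Cspg4*, and the summed level of the list was 382 to 540 normalized CPM in control and 552 to 710 in iNICD libraries. *Cspg4* alone had means of 46.5 and 172 normalized CPM, which is most of the difference in the sums; the other 6 did not pass, and 3 of them had negative estimates. None of the smooth muscle, endothelial, fibroblast, macrophage and epicardial markers passed (0 of 6, 6, 6, 6 and 4). Of 7 cardiomyocyte markers 3 were lower (*Tnnt2*, *Myl7* and *Sln*). Over all tested genes 2.78% were higher and 1.34% lower. The other cardiomyocyte markers did not pass, with log2 fold changes from -0.46 (*Actc1*) to 0.074 (*Ryr2*). Sums of the list were 62159 to 76338 normalized CPM in control and 53332 to 62929 in iNICD libraries. The highest was control replicate 5, and the other controls reached 67849. Neuron markers were under 1 normalized CPM in every library. Of 4 adipocyte and 4 nodal markers 1 and 2 were tested and 0 passed. Of 4 ventricular markers 2 were tested and 0 passed; *Irx4* was at 0 in every library, and the sum of the list ran from 21.2 to 2158 normalized CPM in control and from 17.5 to 2231 in iNICD libraries, most of it *Myh7*. The part of these differences in the levels of the channel genes was not tested.

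Genes that act on or with these channels were taken as 5 lists of 85 genes, of which 73 were tested. In the same edgeR test 6 of the 73 were higher and 3 lower in the iNICD LA, beside the 2.78% and 1.34% of all tested genes. Their median log2 fold change was -0.015, against -0.0061 for all tested genes. Of the 8 other Kir genes only *Kcnj15* was expressed highly enough to be tested, and it did not pass (2.42 ± 1.01 and 2.31 ± 0.983 normalized CPM, edgeR adjusted p = 0.93).

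Upstream of IKACh, 26 of 29 genes were tested, 3 were higher and 1 was lower. *Adora1*, the receptor through which adenosine opens the channel, rose from 31.2 ± 14.03 to 123 ± 43.5 normalized CPM, 3.94-fold (SD over 6 libraries in each group, edgeR adjusted p = 0.00221). *Gnai1*, an inhibitory G protein α subunit, rose from 16.4 ± 1.66 to 24.4 ± 4.70 normalized CPM, 1.48-fold, and its groups did not overlap (edgeR adjusted p = 0.0206). *Gnai1* passed in 10 of 12 leave-one-out fits, and not without control replicate 1 (adjusted p = 0.0524) or iNICD replicate 1 (0.0537). *Rgs7*, of the R7 family of proteins that speed the closing of the channel by turning off Gα, rose from 19.4 ± 3.07 to 29.5 ± 6.44 normalized CPM, 1.52-fold, with 5 of 6 iNICD libraries above all controls (adjusted p = 0.0397). *Gng2*, a G protein γ subunit, was the gene that fell, from 113 ± 20.9 to 76.4 ± 11.2 normalized CPM, a log2 fold change of -0.56 (adjusted p = 0.0327). *Rgs7* passed in 2 and *Gng2* in 3 of 12 leave-one-out fits, and both passed without control replicate 5 (adjusted p = 0.0404 and 0.0034). *Rgs7* missed the threshold with sex as a covariate, on 12 libraries (0.0502) and on those 11 (0.0582). *Chrm2*, the muscarinic receptor of the atrium, was at 434 ± 35.5 and 474 ± 37.7 normalized CPM (log2 fold change 0.13, 95% interval -0.032 to 0.29) and did not pass.

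Calls in the other partner lists are read beside the 4.12% of all tested genes called in either direction. Of 22 tested genes for anchoring and trafficking, 1 rose: *Ank3*, the gene of an ankyrin that tethers membrane proteins, went from 167 ± 13.7 to 211 ± 17.7 normalized CPM, 1.26-fold and with no overlap between groups (edgeR adjusted p = 0.02). *Ank3* passed in 9 of 12 leave-one-out fits, and not without control replicate 1 (adjusted p = 0.051), iNICD replicate 1 (0.0526) or iNICD replicate 4 (0.0613). Of 10 tested genes for the supply of PIP2, a membrane lipid that Kir channels need to open, 1 fell: *Pip5k1b*, a kinase that makes PIP2, had a mean of 42.0 ± 4.80 normalized CPM in controls against 32.1 ± 1.43 with iNICD, and 5 iNICD libraries lay below all controls (edgeR adjusted p = 0.0142). Of 14 tested enzymes that set the nucleotides sensed by KATP channels or that bind to them, 2 rose and 1 fell. *Pkm*, a pyruvate kinase, rose 1.27-fold (edgeR adjusted p = 0.0276), a call that held in 5 of 12 leave-one-out fits (highest adjusted p 0.0815, without iNICD replicate 4) and not without the low-count filter (0.0662). *Ldha*, a lactate dehydrogenase subunit, had a log2 fold change of -0.36 (adjusted p = 0.019), with all 6 iNICD libraries below all controls, and missed the threshold in 1 leave-one-out fit, without iNICD replicate 1 (0.0513).

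**Figure D5:**
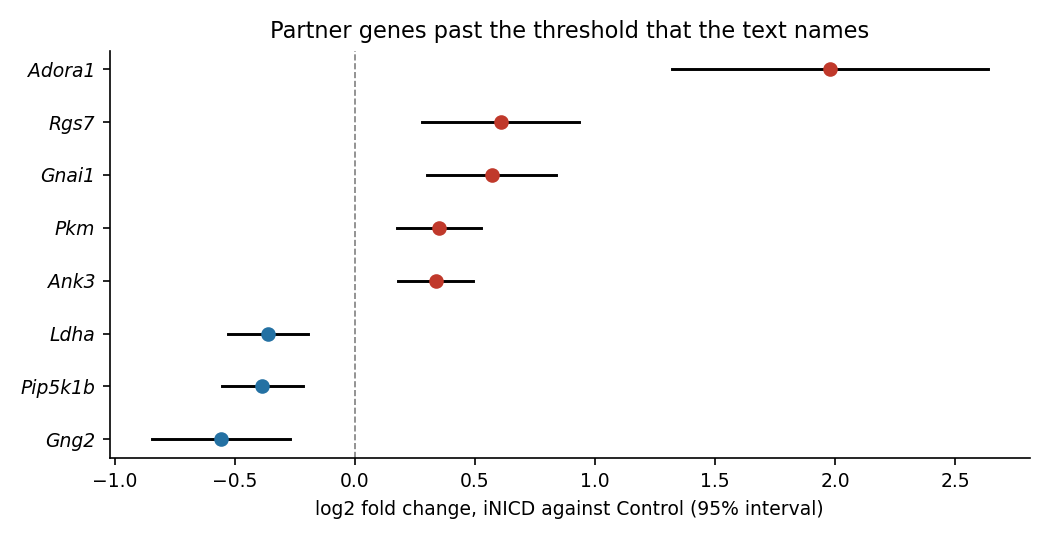
Log2 fold change, iNICD against Control, with its 95% interval for the 8 partner genes that the text names and that passed an adjusted p of 0.05 in edgeR's quasi-likelihood test; red marks higher and blue lower. *Adora1* stands furthest from 0 at 1.98, and the others lie between -0.56 and 0.61.

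When an interaction of sex with genotype was fitted, 0 of 8 tested members had an interaction at an adjusted p under 0.05 (edgeR; DESeq2 also 0), as did 0% of all tested genes in edgeR. Unadjusted, *Abcc8* and *Kcnj11* had p of 0.0103 and 0.0208 (edgeR adjusted p = 0.916 for both). The share of all tested genes under an unadjusted p of 0.05 is not given here, so these 2 cannot be set against it. For *Abcc8* the log2 fold change was -0.14 in females and 0.36 in males, and for *Kcnj11* it was -0.16 and 0.24. The male controls were 2 libraries, of which 1 was control replicate 5, so that library and the sex difference cannot be told apart.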

How the data were processed

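Total RNA of single left atria was depleted of ribosomal RNA and sequenced as single-end reads, described as stranded in the methods. The authors deposited raw read counts per gene name, 1 column per library and without normalization, together with a gene length in bases. The submitters' processing notes name cutadapt, STAR 2.4.2a, Subread featureCounts and mm10, whereas the study's methods also describe TopHat2 with HTSeq, and the table does not name its counter. Groups and replicate numbers came from the sample titles, and sex from the descriptions. Libraries of a group differed by a chi-square per gene of at least 15.4, so none were copies.

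Counts were filtered (more than 1 CPM in at least 6 libraries), scaled by TMM and fitted in edgeR 4.0.16 (R 4.3.3), whose two-sided quasi-likelihood p-values were adjusted after Benjamini and Hochberg over all tested genes and called under 0.05. The fit was tested on simulated data. Normalized CPM are counts over the TMM-scaled library total; levels between genes were divided by the deposited length, which equalled the merged exons of GENCODE M21 for all 9 members. Subunit ratios used a prior count of 0.5 and exact permutation of libraries. Correlations used log2 CPM with a prior count of 2. Mice and libraries are 1 to 1, and intervals of counts cover counting error only. Limma 3.58.1 and DESeq2 1.42.0 served for alternatives.

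Members, lists and tests were chosen with earlier results of these data known. Named are all members, up to 5 changed genes each way per partner list, the 2 genes most correlated with each tested member, the neighbouring protein-coding genes (only those that changed are given by name), and *Notch1*; *Gm26794*, *Myl7*, *Myl2* and *Chrm2* were chosen outside this rule after values were seen. Some genes that the rule selects are not reported here. Promoters from RefSeq were found for 6 of 9 members.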

Additional observations from a re-analysis of the deposited data

Results flagged for a closer look

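Within-group spacing was examined for the 8 tested members and 4 subunit ratios in both groups, 24 sets of 6 libraries with Dixon's ratio and its 95% critical value. On linear values, 1 set exceeded it, where chance gives about 1.2. It was *Kcnj2* in iNICD libraries, with replicate 5 at 47.0 normalized CPM, while the other 5 iNICD libraries lay between 80.6 and 96.2 (Dixon's ratio 0.682). On the log2 scale, an alternative chosen after seeing the data, 3 of the 24 sets exceeded it. They were *Kcnj2* in iNICD libraries again (ratio 0.752) and, through control replicate 5, *Kcnj3* (0.76) and the ratio of *Kcnj3* to *Kcnj5* (0.693) in controls, so the scale decides whether control replicate 5 stands out by this measure.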

How the results depend on the processing

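The count of changed members was 0 in every alternative apart from 1 (*Kcnj3*) without control replicate 5, in edgeR and in DESeq2 on the same 11 libraries, the second of which was chosen after seeing the data, as were robust dispersions, voom with sample weights and the sex covariate on 11 libraries. Over the fits that each left out 1 library it ran from 0 to 1, the count of changed partner genes (9) from 4 to 10 and that of changed ratios from 0 to 0. Libraries whose absence lowered the partner count by over 1.5 times were control replicate 1 (4 genes), iNICD replicate 1 (4) and iNICD replicate 4 (5). In males alone 0 partner genes changed, and in females alone *Gnai1* (adjusted p = 0.147), *Ank3* (0.105), *Ldha* (0.075) and *Rgs7* (0.0632) missed the threshold. Over all genes, 377 were higher and 181 lower; these counts ran from 252 to 486 and from 90 to 310 with 1 library left out, and were 615 and 444 with DESeq2, 680 and 468 with voom, 767 and 557 with DESeq2 on 11 libraries, and 8 and 0 in males alone. Lower calls were 280 with the exact test of edgeR and 304 with sex on 11 libraries.

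The log2 fold changes of *Kcnj5*, *Kcnj11* and *Abcc8*, all near 0, changed sign with a library left out and in other settings. Those of *Kcnj8* and *Kcnj3* did so in the settings given below. With a library left out, *Kcnj5* ran from -0.061 to 0.060, *Kcnj11* from -0.057 to 0.037 and *Abcc8* from -0.053 to 0.071. *Kcnj5* was -0.0014 with DESeq2 and with RLE normalization, -0.0053 with upper quartile, -0.0070 with sex as a covariate, -0.15 in females, -0.027 with voom, -0.046 with DESeq2 on 11 libraries and -0.091 with sex on 11 libraries. *Kcnj11* was -0.0040 with DESeq2, -0.0038 with RLE normalization, -0.0079 with upper quartile, -0.0013 with no filter, -0.0014 without mitochondrial genes, -0.16 in females, -0.043 with voom, -0.056 with DESeq2 on 11 libraries and -0.080 with sex on 11 libraries. *Abcc8* was -0.14 in females, -0.014 with voom, -0.053 with DESeq2 on 11 libraries and -0.048 with sex on 11 libraries. *Kcnj8* was -0.019 in females and -0.031 with sex on 11 libraries, *Kcnj3* was 0.013 in males, and the ratio of *Kcnj2* to *Kcnj12* differed by 0.19 in females. None of these passed its test.

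The deviations of same-numbered libraries correlated at -0.153 to 0.372 over the 6 pairs by title number. By description number they correlated at -0.107 to 0.372, and 4 of 6 pairs were over 0.1 in both. The same-numbered iNICD library was the best match of 3 of 6 controls by title and of 2 by description. These values do not settle whether the numbers mark pairs, and the main fit had no pairing. With the replicate block by title number 0 members and 6 partner genes changed, and by description number 0 and 7. The title block lost *Ank3* (adjusted p = 0.0587), *Gng2* (0.0707) and *Rgs7* (0.0983), and the description block *Rgs7* (0.0806) and *Pip5k1b* (0.0571). The adjusted p of *Kcnj12* was 0.0852 with the title block, its lowest of all settings. With 6 against 6 libraries the smallest exact p is 0.00216.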

Other observations

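*Kcnj14* had its highest counts in male libraries. The 3 male iNICD libraries held 10, 11 and 8 reads and the 2 male controls 3 and 5, against 0 to 3 reads in the 7 female libraries. The gene was singled out after its values were seen, it did not reach the filter, and the difference between the sexes was not tested.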
